A study of Mus musculus with 16 samples.

Results

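The collagen genes of mouse pancreatic tumors were followed through treatment with gemcitabine and an agonist antibody against CD40. A gene counted as a collagen when its symbol followed the pattern of Col, a type number, a and a chain number, and when at least 1 probe set of the array was annotated to it alone. This gave 42 of the 18193 genes represented on the array, measured by 82 probe sets. For genes with more than 1 probe set, the brightest by mean over the 16 arrays was used. The members divided into 11 fibrillar collagens, 8 basement membrane collagens and 23 other collagens. Col6a6 and Col28a1 had no probe set of their own and were not analysed here.

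The tumors grew from PDA30364, a C57BL/6-based pancreatic ductal adenocarcinoma (PDA) line, which was injected with Matrigel under the flank skin of C57BL/6-Ly5.1 mice aged 6 to 12 weeks. Each group held 4 arrays, numbered as replicates. The groups with antibody were GEM/anti-CD40 Ab (gemcitabine and the mIgG1 anti-CD40 antibody) and anti-CD40 Ab (vehicle and the mIgG1 antibody). The others were GEM (gemcitabine and control IgG) and control (vehicle and control IgG). Mice received gemcitabine, a chemotherapeutic analog of a DNA building block, at 120 mg/kg on days 1, 5 and 12 of treatment. Antibody or control IgG was given on days 3, 4, 6 and 14, and tumors were taken 22 or 23 days after inoculation for RNA profiling of the whole tumor. All tumors came from 1 cell line at a subcutaneous site, and all carried the Matrigel injected with the cells.

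Collagens are proteins of 3 chains wound into a triple helix. Fibrillar collagens assemble into the banded fibers of connective tissue, type IV collagen forms the sheet-like network of basement membranes under epithelium and around vessels, and the remaining types decorate fibrils, anchor membranes or build short networks. PDA is known for a dense collagen-rich stroma, made largely by fibroblasts. In whole-tumor RNA, fewer cells of a type and less RNA per cell cannot be told apart.

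Promoter windows are shown for 4 collagens, the type IV pair and a type I and a type III chain, because Col4a1 and Col4a2 are known to be transcribed from a shared promoter region, while the type I and type III genes have promoters of their own. RefSeq start sites on GRCm38.p6 were found for 33 of the 42 members, with 36 windows of 250 bases before to 50 bases after a start. Capitals mark 3 kinds of motif on either strand: the CCAAT box, the GC box core spelled GGGCGG, and the TATA box with the letters TATAAA. A motif on the opposite strand appears as its reverse complement. All sequences run in the direction of transcription of the named gene.
Col1a2, chr6:4505368-4505667, plus strand: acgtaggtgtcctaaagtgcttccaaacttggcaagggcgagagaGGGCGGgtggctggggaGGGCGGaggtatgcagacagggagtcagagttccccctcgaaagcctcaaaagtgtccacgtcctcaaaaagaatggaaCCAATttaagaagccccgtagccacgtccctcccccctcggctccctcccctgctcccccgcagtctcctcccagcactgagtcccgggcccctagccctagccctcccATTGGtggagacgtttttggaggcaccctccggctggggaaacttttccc
Col3a1, chr1:45311288-45311587, plus strand: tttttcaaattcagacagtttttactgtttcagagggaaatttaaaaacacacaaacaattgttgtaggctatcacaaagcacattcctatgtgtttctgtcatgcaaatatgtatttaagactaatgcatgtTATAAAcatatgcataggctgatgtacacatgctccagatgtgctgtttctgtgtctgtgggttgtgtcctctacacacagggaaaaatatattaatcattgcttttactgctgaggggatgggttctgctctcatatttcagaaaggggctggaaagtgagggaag
Col4a1, chr8:11312777-11313076, minus strand: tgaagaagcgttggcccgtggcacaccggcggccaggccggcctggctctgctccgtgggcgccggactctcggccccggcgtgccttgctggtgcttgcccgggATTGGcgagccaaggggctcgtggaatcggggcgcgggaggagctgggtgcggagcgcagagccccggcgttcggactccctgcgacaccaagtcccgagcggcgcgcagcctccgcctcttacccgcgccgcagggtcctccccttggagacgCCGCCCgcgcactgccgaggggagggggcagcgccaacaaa
Col4a2, chr8:11312555-11312854, plus strand: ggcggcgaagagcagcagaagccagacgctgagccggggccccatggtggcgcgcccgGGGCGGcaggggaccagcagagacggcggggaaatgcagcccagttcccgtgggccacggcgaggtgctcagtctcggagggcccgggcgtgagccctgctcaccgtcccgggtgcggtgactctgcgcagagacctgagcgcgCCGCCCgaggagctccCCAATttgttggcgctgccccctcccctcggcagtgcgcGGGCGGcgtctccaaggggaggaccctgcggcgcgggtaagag
The Col4a1 and Col4a2 windows lie head to head on opposite strands, with starts 21 bases apart, and share the 78 bases from chr8:11312777-11312854. A single GGGCGG lies in the shared stretch and was counted once in each window, read from opposite strands. CCAAT occurred in 13 of the 36 collagen windows and in 37.4% of all 32851 RefSeq windows of this length, GGGCGG in 22 and in 35.7%, and TATAAA in 5 and in 13.6%. These matches are letters in a sequence and say nothing of binding.

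Expression values were log2 intensities, so that a difference of 1 is a 2-fold difference. Of the 42 collagens, 23 stood above the median probe-set intensity of 5.62: 7 of 11 fibrillar, 5 of 8 basement membrane and 11 of 23 other members. Tumor epithelium markers (Krt8, Krt18, Krt19, Epcam, Cdh1) averaged 12.4 to 13.1 in all 16 tumors. The 7 measured skin keratinocyte markers averaged 8.74 in control tumor 2 and 6.74 in anti-CD40 Ab tumor 2, against 4.70 to 5.61 in the other 14. The 8 skeletal muscle markers averaged 12.3 in GEM/anti-CD40 Ab tumor 4 and 4.47 to 7.98 elsewhere. These 3 tumors stand apart, so results were also computed without them. A single animal number stands in the labels of GEM replicates 3 and 4. These could be 1 animal, which would leave 3 mice in that group. Their arrays correlated at 0.9948, within the range of 0.9843 to 0.9966 over all pairs, which cannot tell 1 tumor from 2. Both were kept as samples, and each array is called a tumor here.

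The question for each treatment was whether collagen transcripts differed from control tumors. No collagen gene passed an adjusted p of 0.05 (limma, Benjamini-Hochberg over all 45037 probe sets) in GEM/anti-CD40 Ab, anti-CD40 Ab or GEM tumors against control. Over all 18193 genes, 0.0275% passed in GEM/anti-CD40 Ab tumors, 0% in anti-CD40 Ab tumors and 0% in GEM tumors. The smallest adjusted p of a collagen was 0.4149 with GEM/anti-CD40 Ab, 0.8073 with anti-CD40 Ab and 0.7862 with GEM. At an unadjusted p of 0.05, 0 collagens were higher and 3 lower with GEM/anti-CD40 Ab (5.86% and 5.35% of all genes), 2 higher and 3 lower in anti-CD40 Ab tumors (3.52% and 3.74%), and 1 higher and 2 lower in GEM tumors (3.34% and 2.97%). The 3 comparisons use the same 4 control tumors and are therefore not separate pieces of evidence.

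**Figure D1:**
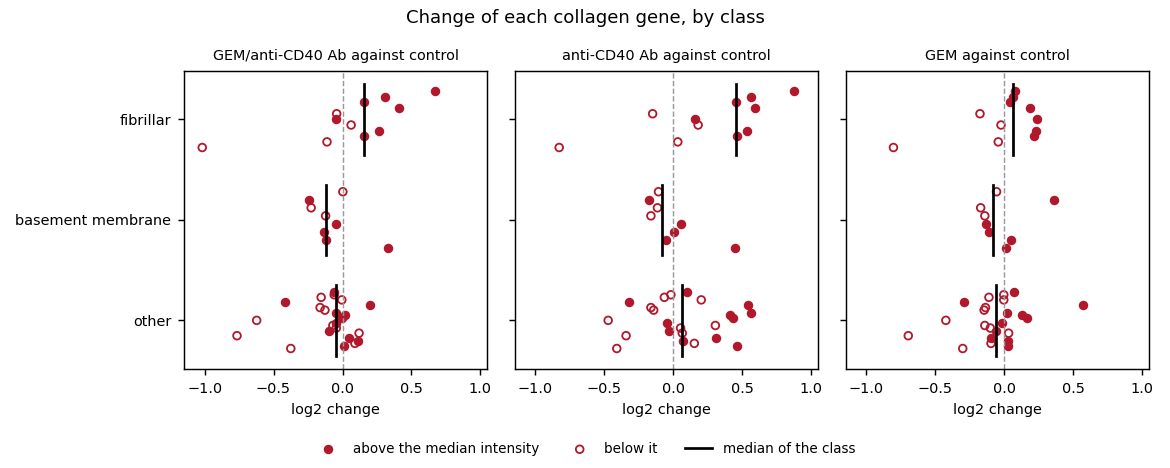
Log2 change against control (horizontal axis) of each of the 42 collagens, grouped by class, in GEM/anti-CD40 Ab, anti-CD40 Ab and GEM tumors. Filled points are genes above the median probe-set intensity, open points lie below it, and black lines are class medians. The fibrillar median sits at 0.45 in the anti-CD40 Ab panel, and the open point far to the left in each fibrillar row is Col11a1.

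The fibrillar collagens had the largest median change of the 3 classes with anti-CD40 Ab. Their 11 members had a median log2 change of 0.16 with GEM/anti-CD40 Ab, 0.45 with anti-CD40 Ab and 0.06 with GEM, where the medians over all genes were -0.015, -0.0175 and -0.0025. Among the 7 fibrillar members above the median intensity, 6 lay above 0 with GEM/anti-CD40 Ab, 7 with anti-CD40 Ab and 7 with GEM. Of all genes, 45.17%, 44.15% and 49.21% did. The 7 changes with GEM ran only from 0.0425 to 0.235. These members varied together over the tumors, so such counts are not separate pieces of evidence. Without GEM/anti-CD40 Ab tumor 4 the GEM/anti-CD40 Ab median was -0.0017, and without tumor 3 of that group 0.31. The anti-CD40 Ab median stayed above 0 with any 1 tumor left out, but its size depended on single tumors. It was 0.28 without anti-CD40 Ab tumor 4 and 0.76 without anti-CD40 Ab tumor 2. Without the 3 tumors carrying skin or muscle transcripts it was 0.85.

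Col1a1 and Col1a2 encode the chains of type I collagen, the main fiber protein of scar and tumor stroma. Col1a2 was 12.87, 12.97, 12.37 and 13.20 in GEM/anti-CD40 Ab tumors, 13.21, 12.42, 13.32 and 13.55 in anti-CD40 Ab tumors, 12.51, 12.89, 12.84 and 13.04 in GEM tumors, and 12.85, 12.82, 12.10 and 12.59 in control tumors. In all, 3 of 4 anti-CD40 Ab tumors lay above every control tumor, and anti-CD40 Ab tumor 2 lay among the controls. The log2 change was 0.26 with GEM/anti-CD40 Ab, 0.54 ± 0.25 (SE) with anti-CD40 Ab and 0.23 with GEM. None of these passed. Col1a1 was 10.12, 10.11, 9.74 and 10.82 in GEM/anti-CD40 Ab tumors, 10.53, 9.62, 10.94 and 10.94 in anti-CD40 Ab tumors, 9.87, 10.35, 10.34 and 10.49 in GEM tumors, and 10.27, 10.31, 9.50 and 10.09 in control tumors. The groups overlapped here too, with changes of 0.16 ± 0.25, 0.47 ± 0.30 and 0.22 ± 0.19 (SE) in the same order of treatments. A second, dimmer Col1a1 probe set gave 0.45, 0.83 and 0.33.

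Col3a1 encodes type III collagen, which forms thin fibers together with type I. It was 12.70, 12.44, 11.66 and 13.02 in GEM/anti-CD40 Ab tumors, 12.83, 11.69, 13.03 and 12.98 in anti-CD40 Ab tumors, 11.65, 12.41, 12.36 and 12.49 in GEM tumors, and 12.13, 12.31, 11.62 and 12.11 in control tumors. Each treated group held 1 tumor near 11.7, at the level of the lowest control, beside 3 tumors that were above every control. Its change was 0.41 with GEM/anti-CD40 Ab, 0.59 ± 0.29 (SE) with anti-CD40 Ab and 0.19 with GEM.

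Type V collagen chains join type I fibrils and limit their diameter. Col5a1 differed from control by 0.16, 0.45 and 0.04 with GEM/anti-CD40 Ab, anti-CD40 Ab and GEM. Col5a2 differed by 0.31, 0.57 and 0.06, and none of these changes passed. Anti-CD40 Ab tumors 1, 3 and 4 lay above every control tumor in both genes, and tumor 2 did not. Col5a3, the third type V chain, had the smallest p among the members on the higher side in the GEM/anti-CD40 Ab tumors. Col5a3 was 8.61, 8.42, 7.41 and 9.11 in GEM/anti-CD40 Ab tumors, 8.43, 7.79, 8.98 and 9.18 in anti-CD40 Ab tumors, 7.47, 7.87, 7.67 and 8.17 in GEM tumors, and 7.69, 8.15, 7.20 and 7.83 in control tumors. In each antibody-treated group 3 of 4 tumors exceeded all controls and 1 did not, and GEM tumors lay in the range of the controls apart from GEM tumor 4. The change was 0.67 with GEM/anti-CD40 Ab (adjusted p = 0.5676 in limma), 0.88 ± 0.30 (SE) with anti-CD40 Ab (adjusted p = 0.8073) and 0.08 with GEM. A second, dimmer Col5a3 probe set gave -0.01, -0.05 and -0.01, and the mean of both gave 0.33 with GEM/anti-CD40 Ab and 0.42 with anti-CD40 Ab.

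**Figure D2:**
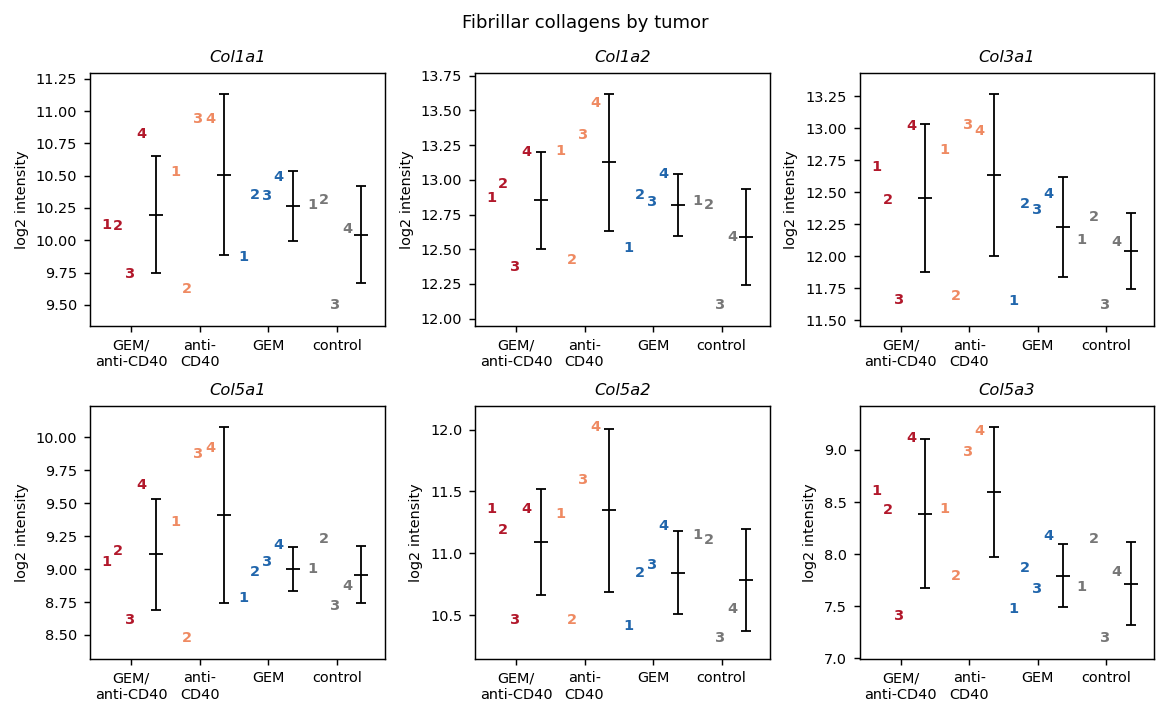
Log2 intensity (vertical axis) of 6 fibrillar collagens, where each numeral is 1 tumor by its replicate number, ordered by group as GEM/anti-CD40 Ab, anti-CD40 Ab, GEM and control, and the bars beside them are the mean ± SD (n = 4). The anti-CD40 Ab group has the highest mean in each panel, and its replicate 2 sits apart at the bottom of its group.

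Col11a1 went the other way. Its chain nucleates fibrils in cartilage and is used as a marker of activated fibroblasts in human carcinomas. Col11a1 was 4.24, 4.48, 3.98 and 4.58 in GEM/anti-CD40 Ab tumors, 4.29, 4.51, 4.43 and 4.81 in anti-CD40 Ab tumors, 4.49, 4.34, 4.63 and 4.68 in GEM tumors, and 5.10, 5.80, 4.60 and 5.85 in control tumors. Every GEM/anti-CD40 Ab tumor was below every control tumor, while in the other treated groups control tumor 3 overlapped with the treated tumors. The change was -1.02 ± 0.27 (SE) with GEM/anti-CD40 Ab (adjusted p = 0.4149 in limma), -0.83 with anti-CD40 Ab (adjusted p = 0.8073) and -0.80 with GEM (adjusted p = 0.7862). A second Col11a1 probe set, mean 3.11 and singled out after its values were seen, gave -0.86, -0.75 and -0.77, with adjusted p of 0.152, 0.4962 and 0.2885. Both probe sets lay below the median intensity of the array.

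Among the remaining fibrillar members only Col27a1 lay above the median intensity, with its largest change against control at 0.235 with GEM. Col27a1, a fibrillar chain of cartilage, had 8.85 ± 0.17 in GEM/anti-CD40 Ab tumors, 9.06 ± 0.18 in anti-CD40 Ab tumors, 9.14 ± 0.13 in GEM tumors and 8.90 ± 0.23 in control tumors (SD, n = 4 each). Col2a1 and Col11a2, the cartilage chains, averaged between 4.69 and 4.87 in every group, and Col24a1 between 2.83 and 3.03. The 5 measured cartilage and bone markers averaged between 4.90 and 5.24 per tumor, with no group apart.

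As a class, basement membrane collagens differed little from control in median and mean, though single members such as Col15a1, given below, differed more. Their 8 members had a median log2 change of -0.12 with GEM/anti-CD40 Ab, -0.08 with anti-CD40 Ab and -0.08 with GEM. Their mean over members was 7.66 ± 0.11 in GEM/anti-CD40 Ab tumors, 7.72 ± 0.14 in anti-CD40 Ab tumors, 7.71 ± 0.06 in GEM tumors and 7.73 ± 0.10 in control tumors (SD, n = 4 each). No member passed at an unadjusted p of 0.05 in these 3 comparisons.

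Col4a1 and Col4a2, the major type IV chains present in nearly every basement membrane, varied by 0.62 and 0.63 log2 units over all 16 tumors. Col4a1 was 11.20, 11.08, 10.79 and 11.31 in GEM/anti-CD40 Ab tumors, 11.39, 10.92, 11.25 and 11.37 in anti-CD40 Ab tumors, 10.96, 11.08, 11.19 and 11.23 in GEM tumors, and 11.26, 11.41, 11.09 and 11.15 in control tumors. Col4a2 was 10.39, 10.26, 9.96 and 10.42 in GEM/anti-CD40 Ab tumors, 10.52, 10.03, 10.29 and 10.59 in anti-CD40 Ab tumors, 10.07, 10.21, 10.13 and 10.28 in GEM tumors, and 10.46, 10.53, 10.09 and 10.14 in control tumors. All groups overlapped for both chains. Changes were -0.13, 0.01 and -0.11 for Col4a1 and -0.05, 0.05 and -0.13 for Col4a2 with GEM/anti-CD40 Ab, anti-CD40 Ab and GEM. The 95% interval of the Col4a1 change with anti-CD40 Ab ran from -0.26 to 0.27.

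Col15a1 and Col18a1 encode collagens of vascular and epithelial basement membranes, whose C-terminal fragments restin and endostatin are known to restrain vessel growth. Col15a1 differed from control by 0.33, 0.45 and 0.02 and Col18a1 by -0.12, -0.05 and 0.05, in the same order. The 8 endothelial markers, as a list, lay above control for 8 of 8 genes with GEM/anti-CD40 Ab (median 0.48), 8 of 8 with anti-CD40 Ab (median 0.54) and 4 of 8 with GEM. Their mean ranged from 6.61 to 7.41 in GEM/anti-CD40 Ab tumors, 6.47 to 7.29 in anti-CD40 Ab tumors, 6.13 to 6.68 in GEM tumors and 6.19 to 6.63 in control tumors, and their part in the collagen values was not tested.

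Col4a5, a type IV chain of specialised basement membranes such as that of the kidney glomerulus, showed its clearest difference between the GEM-treated groups. It was 8.26, 7.91, 8.74 and 8.19 in GEM/anti-CD40 Ab tumors, 8.51, 8.72, 8.49 and 7.65 in anti-CD40 Ab tumors, 8.47, 8.86, 9.02 and 9.17 in GEM tumors, and 8.29, 8.62, 8.86 and 8.31 in control tumors. In all, 3 of 4 GEM/anti-CD40 Ab tumors lay below every GEM tumor and replicate 3 did not. Col4a3, Col4a4 and Col4a6 had group means between 3.80 and 5.47 and no change at an unadjusted p of 0.05 against control.

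**Figure D3:**
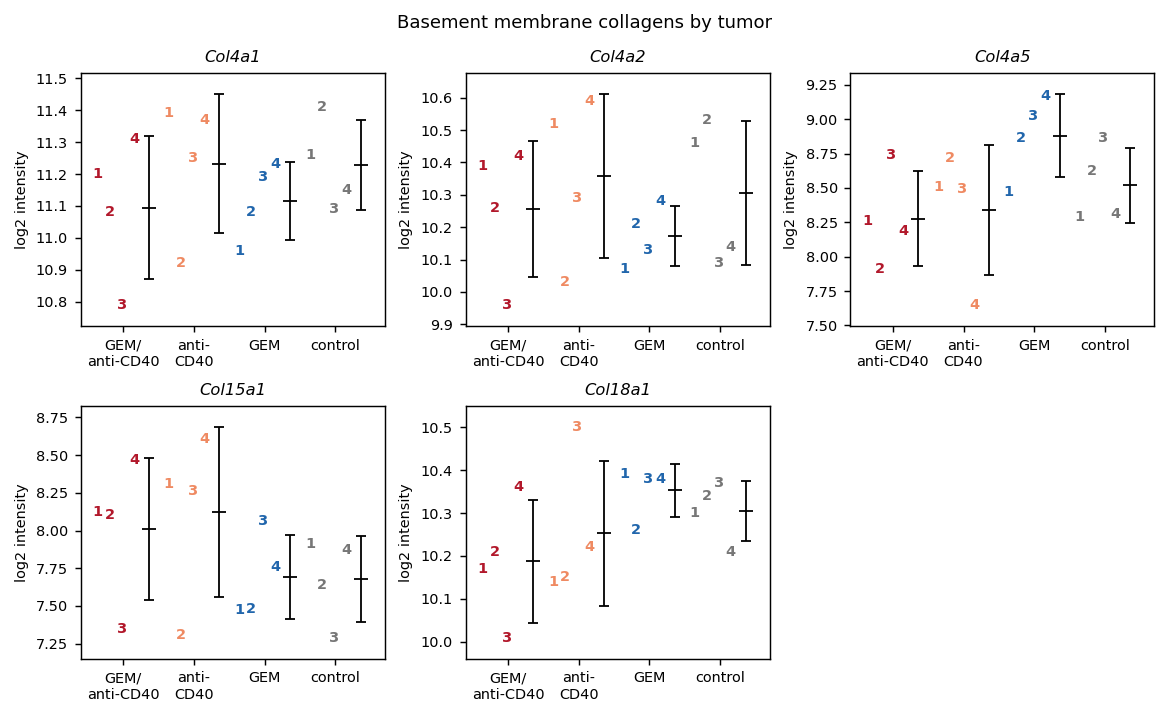
Log2 intensity (vertical axis) of basement membrane collagens, where each numeral is 1 tumor by its replicate number, ordered by group as GEM/anti-CD40 Ab, anti-CD40 Ab, GEM and control, and the bars beside them are the mean ± SD (n = 4). Col4a1 stays between 10.79 and 11.41 in all 16 tumors, and Col4a5 is highest in GEM tumors.

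Type VI collagen, which forms beaded filaments around cells, had 3 of its 5 members above the median intensity. Col6a3 was 9.99, 10.36, 8.94 and 10.74 in GEM/anti-CD40 Ab tumors, 10.63, 9.73, 10.86 and 11.26 in anti-CD40 Ab tumors, 9.63, 10.08, 9.99 and 10.61 in GEM tumors, and 10.08, 10.48, 9.42 and 10.24 in control tumors. Changes against control were -0.05, 0.57 and 0.02 for Col6a3, 0.00, 0.43 and 0.17 for Col6a1 and 0.02, 0.41 and 0.13 for Col6a2 with GEM/anti-CD40 Ab, anti-CD40 Ab and GEM. In all, 3 of 4 anti-CD40 Ab tumors lay above all controls in Col6a3, and GEM/anti-CD40 Ab tumors spread from 8.94 to 10.74. Col12a1 and Col14a1, which sit on the surface of type I fibrils, differed from control by 0.01, 0.47 and 0.03 and by 0.11, 0.07 and 0.03.

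Col7a1, the anchoring fibril collagen that ties skin basement membrane to the dermis, was 7.07, 7.72, 7.71 and 7.51 in GEM/anti-CD40 Ab tumors, 7.25, 7.76, 7.87 and 8.50 in anti-CD40 Ab tumors, 7.88, 7.94, 7.97 and 7.73 in GEM tumors, and 7.85, 7.65, 7.11 and 6.61 in control tumors. It differed from control by 0.20 with GEM/anti-CD40 Ab, 0.54 with anti-CD40 Ab and 0.58 with GEM (unadjusted p = 0.0355, adjusted p = 0.8524 in limma). GEM tumors lay close together, from 7.73 to 7.97, and overlapped with control tumor 1.

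Col10a1 and Col26a1 had lower means in every treated group than in control, as had Col11a1, and the control tumors are common to all these comparisons. Col10a1, a short-chain collagen of hypertrophic cartilage that is also found in tumor stroma, was 4.55, 4.69, 4.59 and 4.78 in GEM/anti-CD40 Ab tumors, 4.74, 4.48, 4.48 and 4.77 in anti-CD40 Ab tumors, 4.73, 4.68, 4.75 and 4.75 in GEM tumors, and 5.14, 5.25, 4.78 and 4.94 in control tumors. No anti-CD40 Ab or GEM tumor reached the lowest control, and in the combination 1 tumor equalled it. The change was -0.38 ± 0.11 with GEM/anti-CD40 Ab (adjusted p = 0.4439), -0.41 with anti-CD40 Ab (adjusted p = 0.8073) and -0.30 with GEM (adjusted p = 0.7862), all from limma. Col26a1 was 4.22, 4.13, 4.13 and 4.34 in GEM/anti-CD40 Ab tumors, 4.30, 4.38, 4.36 and 4.38 in anti-CD40 Ab tumors, 4.73, 4.39, 4.08 and 4.42 in GEM tumors, and 4.66, 5.44, 4.57 and 4.64 in control tumors. Its change was -0.62, -0.47 and -0.42, but a second Col26a1 probe set gave only -0.10, -0.06 and 0.03. Counted over members, 2 collagens lay wholly below control with GEM/anti-CD40 Ab (3% of all genes), 3 with anti-CD40 Ab (1.75%) and 1 with GEM (1.84%). The third with anti-CD40 Ab was Col4a3, whose highest anti-CD40 Ab tumor stood at 4.24 and whose lowest control tumor stood at 4.26.

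Col17a1, a transmembrane collagen of keratinocyte hemidesmosomes, was 3.29, 3.46, 3.16 and 3.15 in GEM/anti-CD40 Ab tumors, 3.09, 4.84, 3.51 and 3.31 in anti-CD40 Ab tumors, 3.23, 3.27, 3.11 and 3.73 in GEM tumors, and 3.16, 6.76, 3.18 and 3.02 in control tumors. The 3 highest tumors, control 2, anti-CD40 Ab 2 and GEM 4, are those with the highest skin keratinocyte marker means, 8.74, 6.74 and 5.61. The fitted changes of -0.77, -0.34 and -0.70 therefore rest on those tumors, and without control tumor 2 and the 2 others that stand apart the first becomes 0.18. Col8a1, a network collagen of vessel walls, differed from control by -0.42, -0.32 and -0.29. Col23a1, a transmembrane chain, was higher by 0.31 with anti-CD40 Ab (unadjusted p = 0.0212, adjusted p = 0.8073 in limma).

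**Figure D4:**
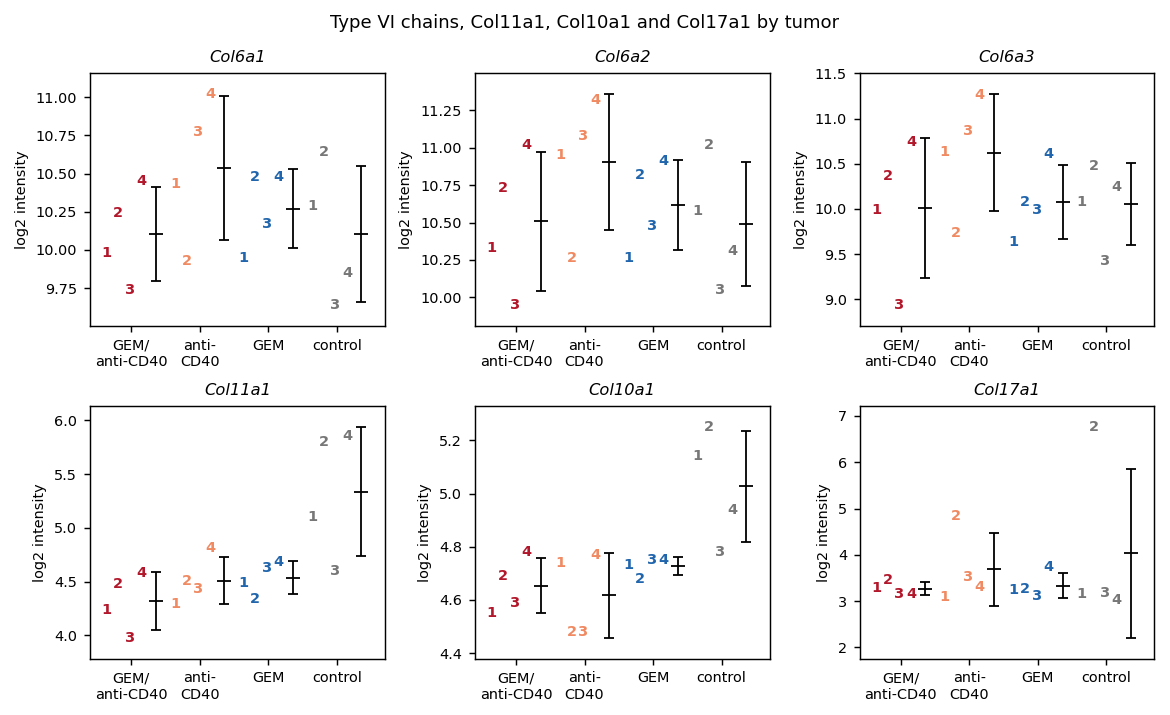
Log2 intensity (vertical axis) of the type VI chains, Col11a1, Col10a1 and Col17a1, where each numeral is 1 tumor by its replicate number, ordered by group as GEM/anti-CD40 Ab, anti-CD40 Ab, GEM and control, and the bars beside them are the mean ± SD (n = 4). Col11a1 averages 4.32, 4.51, 4.54 and 5.34 from left to right, and the Col17a1 panel is set by control tumor 2 at 6.76.

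Set directly against its single agents, the combination again gave no collagen past an adjusted p of 0.05 in limma, against GEM or against anti-CD40 Ab, and 0% of all genes passed in either comparison. At an unadjusted p of 0.05, 0 collagens were higher and 3 lower in GEM/anti-CD40 Ab than in GEM tumors (6.67% and 6.1% of all genes). These were Col4a5 (-0.61 ± 0.19 SE, adjusted p = 0.2975), Col27a1 (-0.29) and Col7a1 (-0.38). Col7a1 was the 1 collagen with every GEM/anti-CD40 Ab tumor below every GEM tumor, where 3.46% of all genes were so. Col5a3 was 0.59 higher without passing. Against anti-CD40 Ab, 0 collagens were higher and 1 lower (2.19% and 1.41% of all genes), namely Col23a1 (-0.38, adjusted p = 0.9372). All 7 fibrillar members above the median intensity had values below 0 in this comparison, as had 8713 of the 18193 genes. Their median was -0.26, and none of the 7 passed.

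The interaction term asks whether the combination differed from the sum of the changes with each agent. No collagen passed (smallest adjusted p = 0.8901 in limma) and 0% of all genes did. Values were -0.53 for Col1a1, -0.50 for Col1a2 and -0.36 for Col3a1. At an unadjusted p of 0.05, 1 collagen was above 0, Col10a1 at 0.34, and 3 below, Col7a1 at -0.92, Col27a1 at -0.44 and Col9a3 at -0.24, beside 2.81% and 2.3% of all genes.

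Pooling the 8 tumors with the antibody against the 8 without it, 0 collagens passed an adjusted p of 0.05, where 0.561% of all genes did. Col5a3 was 0.74 ± 0.23 (SE) higher, with an adjusted p of 0.1874 in limma, and 0.36 higher by the mean of its probe sets. Without GEM/anti-CD40 Ab tumor 3, in which Col5a3 was the lowest of its group, the difference was 0.90 and the adjusted p 0.04974. The other fits that left out 1 tumor gave adjusted p of 0.09599 to 0.3169 in limma. The difference was 0.63 without anti-CD40 Ab tumor 4 and 0.63 without GEM/anti-CD40 Ab tumor 4. At an unadjusted p of 0.05, 2 collagens were higher and 4 lower (7.4% and 7.52% of all genes). On the lower side stood Col10a1 (-0.24), Col11a1 (-0.52), Col26a1 (-0.34) and the basement membrane member Col4a5 (-0.39). Col1a1 was 0.20 higher, Col1a2 0.28 and Col3a1 0.41, against -0.01 for Col4a1 and 0.07 for Col4a2, and none of these passed. For GEM, pooled in the same way, 0 collagens passed and 0.0055% of all genes did, with 0 higher and 3 lower at an unadjusted p of 0.05 (3% and 2.48%), namely Col11a1 (-0.50), Col26a1 (-0.29) and Col23a1 (-0.26).

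The spread between tumors of the same group exceeded that between group means for 23 of the 23 collagens above the median intensity. Below it, Col11a1 (0.35 within groups and 0.45 between group means), Col10a1 (0.14 and 0.19) and Col26a1 (0.25 and 0.27) went the other way. Means of 4 tumors vary less than single tumors in any case, so this comparison cannot show that a treatment had no effect. For Col1a2 the pooled SD within groups was 0.37 and the SD of the 4 group means, each already an average of 4 tumors, 0.22, for Col4a1 the values were 0.18 and 0.07, and for Col14a1 0.58 and 0.05. In the fibrillar class the low values came from the same tumors. Anti-CD40 Ab tumor 2 and GEM tumor 1 were the lowest of their groups in 7 of 7 fibrillar members above the median intensity, and GEM/anti-CD40 Ab tumor 3 and control tumor 3 in 6 of 7. GEM/anti-CD40 Ab tumor 4, the one with skeletal muscle transcripts, was the highest of its group in 6 of 7. Among the 5 basement membrane members above the median intensity, anti-CD40 Ab tumor 2 was the lowest of its group in 3, GEM tumor 1 and GEM/anti-CD40 Ab tumor 3 in 4 each, and control tumor 3 in 3. The 10 fibroblast markers averaged 8.00 in GEM/anti-CD40 Ab tumor 3, 8.20 in anti-CD40 Ab tumor 2, 8.08 in GEM tumor 1 and 8.07 in control tumor 3, each the lowest of its group, against up to 9.26 in the others. By group the fibroblast list, with 10 of 10 genes measured and 2 of them (Dcn and Lum) also among the fibril partners below, ranged from 8.00 to 9.26 in GEM/anti-CD40 Ab tumors, 8.20 to 9.25 in anti-CD40 Ab tumors, 8.08 to 8.93 in GEM tumors and 8.07 to 9.15 in control tumors. Its part in the collagen values was not tested.

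Across the 16 tumors, 4 pairs of chains of the same collagen type ran together, as did Col1a1 and Col3a1. Of 8 pairs computed, with 100000 permutations, two-sided, the smallest p that these permutations can give being 1e-05, Col6a1 and Col6a2 had Pearson's r = 0.97 and Spearman's rho = 0.96, Col1a1 and Col1a2 0.96 and 0.92, Col1a1 and Col3a1 0.92 and 0.90, Col5a1 and Col5a2 0.91 and 0.90, and Col4a1 and Col4a2 0.91 and 0.93. Each of these 5 pairs reached a permutation p of 1e-05 for r and an adjusted p of 1.6e-05. Leaving out the 2 tumors farthest from the median of the first gene gave r of 0.96, 0.94, 0.89, 0.86 and 0.88 in this order. Within groups, on deviations from the group means, r was 0.97, 0.96, 0.94, 0.90 and 0.93. Col4a1 and Col4a2 share the promoter region printed above, and Col1a1 and Col1a2 lie on different chromosomes; their coefficients were not tested against each other.

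Between the classes, Col1a1 and Col4a1 had r = 0.75 and rho = 0.73 (adjusted permutation p = 0.000869 for r and 0.00214 for rho), with r = 0.75 without the 2 farthest tumors and 0.85 within groups. Col1a1 and Pdgfrb, a receptor of fibroblasts and pericytes, had r = 0.79 and rho = 0.78 (adjusted permutation p = 0.000373 and 0.000667), 0.79 without the 2 farthest and 0.87 within groups. Col4a1 and the endothelial gene Pecam1 had r = 0.47 and rho = 0.46 (adjusted permutation p = 0.0678 and 0.0739), 0.59 without the 2 farthest and 0.81 within groups. As a description over all pairs of members above the median intensity in 16 tumors of shared arrays, the median r was 0.90 among the 21 fibrillar pairs, 0.17 among 10 basement membrane pairs, 0.29 among 55 pairs of other collagens and 0.64 between fibrillar and basement membrane members. Col4a5 had r = -0.47 to Col1a2 and -0.29 to Col4a1. Col25a1 and Col20a1 also had negative r to Col1a2, of -0.26 and -0.12. All other members above the median intensity had positive r to Col1a2.

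**Figure D5:**
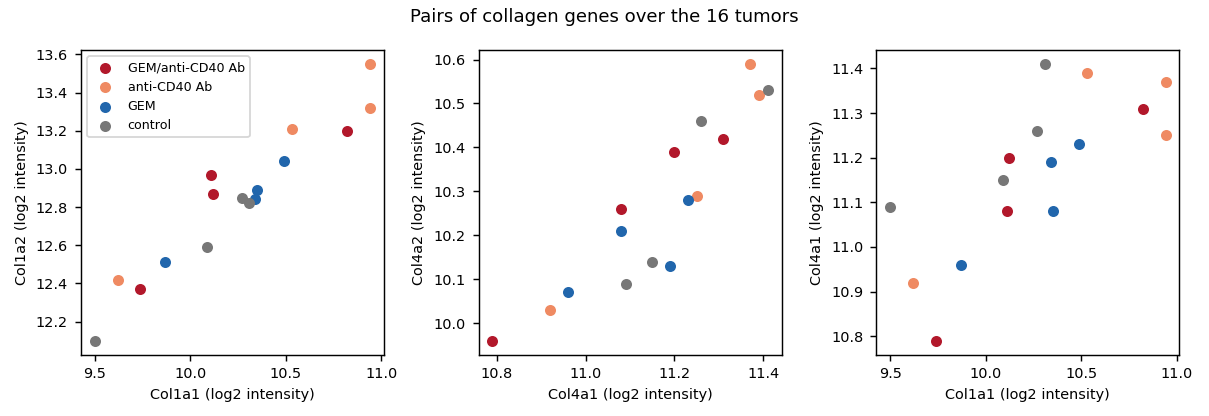
Log2 intensities of Col1a1 with Col1a2 (r = 0.96), Col4a1 with Col4a2 (r = 0.91) and Col1a1 with Col4a1 (r = 0.75), both axes in log2 units, with 1 point for each of the 16 tumors, colored by group. The points lie along a line in the first panels and scatter more widely in the last.

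Genes that build, cross-link, hold or degrade collagen were read from 4 lists. Of the 31 measured collagen biosynthesis genes, the counts above and below control at an unadjusted p of 0.05 were 3 and 2 with GEM/anti-CD40 Ab, 1 and 2 for anti-CD40 Ab, and 2 and 2 for GEM. Over all genes the shares were 5.86% and 5.35%, 3.52% and 3.74%, and 3.34% and 2.97%, and these apply to the lists that follow. Of the 22 fibril and turnover partners the counts were 6 and 1, 2 and 0, and 1 and 0. Of the 14 basement membrane partners (laminins, nidogens and proteoglycans) they were 0 and 3, 0 and 0, and 0 and 1, and of the 9 collagen receptors 0 and 0, 0 and 0, and 0 and 1. None of these genes passed an adjusted p of 0.05 in any comparison of 2 groups or in the interaction.

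Pcolce, an enhancer of procollagen C-propeptide removal, was 11.67, 11.65, 11.52 and 11.49 in GEM/anti-CD40 Ab tumors, 11.53, 11.61, 11.48 and 11.72 in anti-CD40 Ab tumors, 11.47, 11.64, 11.68 and 11.53 in GEM tumors, and 11.81, 11.90, 11.84 and 11.87 in control tumors. All 12 treated tumors lay below the 4 controls, by -0.27, -0.27 and -0.28, with adjusted p of 0.4017, 0.8073 and 0.7005 in limma. Loxl4, a lysyl oxidase that cross-links collagen, differed from control by -0.35 with GEM (adjusted p = 0.481), with every GEM tumor below every control. Of all genes, 3%, 1.75% and 1.84% lay wholly below control with GEM/anti-CD40 Ab, anti-CD40 Ab and GEM. Lamc1 (-0.23) and Nid2 (-0.31), a laminin chain and a nidogen, were lower with GEM/anti-CD40 Ab without passing, and Fkbp14, a folding helper of procollagen, differed from control by 0.20 with GEM. Mmp2, a gelatinase, differed from control by 0.67 with anti-CD40 Ab. In GEM/anti-CD40 Ab against GEM tumors, Mmp9, another gelatinase, differed by 1.22 and P3h4, a partner of collagen prolyl and lysyl hydroxylation, by -0.23. In GEM/anti-CD40 Ab against anti-CD40 Ab tumors, Mmp8 differed by 0.43, Lama2 by -0.49 and Aspn by -0.87, none of them past the test.

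Mmp13, the main interstitial collagenase of the mouse, rose with the antibody. It was 9.91, 9.52, 9.76 and 10.22 in GEM/anti-CD40 Ab tumors, 9.53, 9.91, 9.86 and 9.96 in anti-CD40 Ab tumors, 8.96, 8.83, 9.09 and 8.91 in GEM tumors, and 9.58, 9.32, 8.85 and 8.59 in control tumors. All 4 GEM/anti-CD40 Ab tumors lay above all GEM tumors (0.91 ± 0.14 SE, adjusted p = 0.1974 in limma), as they did for 672 of all 18193 genes. Control tumor 1 overlapped with anti-CD40 Ab tumors (0.73 ± 0.20, adjusted p = 0.8073). Over both backgrounds the antibody difference was 0.82 ± 0.13 (SE), with an adjusted p of 0.02112, the single gene of these lists to pass. The call held in 17 of 25 alternative settings and was lost in 8, with an adjusted p of 0.05095 when GEM replicates 3 and 4 were averaged, 0.05721 without the 3 tumors that stand apart, 0.05828 without control tumor 3, 0.05886 without anti-CD40 Ab tumor 4, 0.05926, 0.05536 and 0.05455 without GEM tumor 1, 3 or 4, and 0.05046 with the replicate number as a block. The 5 macrophage markers averaged 9.37 to 10.35 in GEM/anti-CD40 Ab tumors, 9.19 to 9.84 in anti-CD40 Ab tumors, 8.95 to 9.61 in GEM tumors and 8.99 to 9.63 in control tumors, and their part in the Mmp13 values was not tested. In the same comparison Mmp8, the neutrophil collagenase, was 0.45 higher and Plod1, a lysyl hydroxylase, 0.30 higher, with adjusted p of 0.1046 and 0.1157. Without anti-CD40 Ab tumor 2 the Plod1 value was 0.36 with an adjusted p of 0.03774. The other Plod1 fits that left out 1 tumor gave adjusted p of 0.07476 to 0.2248 in limma.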

How the data were processed

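RNA from whole tumors was hybridised to 16 Affymetrix mouse arrays, 4 per group. The deposited values were log2 intensities per probe set, made by the authors with RMA (robust multi-array average, which corrects background, equalises array distributions and summarises probes). They were rounded to 2 decimals, and no source used here gives the software version or says which arrays were normalized jointly. RMA compresses differences of dim probe sets. No read depth applies, and precision is set by the 4 arrays per group.

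The array holds 45101 probe sets, of which 64 are array controls and 45037 were tested. A single gene symbol was annotated to 34945, several to 932 and none to 9160, and 34741 of the first matched a gene of the RefSeq table, giving 18193 genes. Groups followed the labels. Each pair of groups was fitted alone with limma 3.58.1 in R 4.3.3, as the study's methods compare 2 groups at a time, with Benjamini-Hochberg adjustment over all probe sets. The interaction and the pooled effects were fitted over 16 arrays. Class medians carry no test. Correlations used scipy 1.17.1, and scripts were tested on simulated data. The limma p-values weigh a difference against the spread between these samples that the fit leaves. Permutation p-values ask whether 2 genes vary together over the 16 arrays. Values were compared within a probe set, not between genes.

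The collagens, the classes and the gene lists were chosen with earlier results of these data known, as was the set of 3 arrays that stand apart. Named genes were 18 collagens of a set list, the 3 members with the smallest unadjusted p in each direction of a comparison, and up to 3 list genes with the smallest p. The list genes Fkbp10, Adamts2, Adamts14, Loxl2, Itga11, Flg2, Plin1, Cfd and Bglap had no probe set of their own and were not analysed here. Alternatives were other samples in the fit, a filter on dim probe sets, array weights, a robust prior with a trend for the variance, quantile normalization, scaling to the 75th percentile, other rules for probe sets, a replicate block, averaging GEM replicates 3 and 4, and leaving out arrays.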

Additional observations from a re-analysis of the deposited data

Results flagged for a closer look

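Within groups of 4 tumors, the highest or lowest value was set against the other three by Dixon's criterion (the gap to the nearest tumor over the range of the group, at the 95% level), for 42 collagens and 3 class means in 4 groups. This marked 9 of 180 sets, where chance marks about 1 in 20. Col3a1 was far below the rest of its group in anti-CD40 Ab tumor 2 (11.69) and in GEM tumor 1 (11.65), the tumors with the lowest fibroblast marker means of those groups (8.20 and 8.08). The mean of the basement membrane collagens was low in anti-CD40 Ab tumor 2 (7.5062). Control tumor 2, with the highest skin keratinocyte marker mean (8.74), was high in Col17a1 (6.76), Col26a1 (5.44) and Col13a1 (5.68). Col14a1 was high in GEM tumor 4 (8.36), Col18a1 was low in GEM tumor 2 (10.26), and Col24a1 was low in GEM/anti-CD40 Ab tumor 3 (2.83).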

How the results depend on the processing

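The count of collagens past an adjusted p of 0.05 was 0 in 169 of 170 alternative fits. The exception was the pooled antibody effect, with 0 to 1 over the fits that left out 1 tumor. Of 518 class medians, 9 moved by more than the spread between replicates and 54 changed sign, from main values of at most 0.155. With anti-CD40 Ab against control, the fibrillar median ran from 0.28 to 0.76 when 1 tumor was left out and was 0.85 without the 3 tumors with skin or muscle transcripts, and the median of the other collagens was 0.31 with dim probe sets left out. Without those 3 tumors, the fibrillar median of GEM/anti-CD40 Ab against anti-CD40 Ab was -0.62, and the interaction medians were -0.81 (fibrillar), -0.21 (basement membrane) and -0.21 (other). With dim probe sets left out the interaction medians were -0.11 (basement membrane) and -0.24 (other). The causes were not tested, apart from fewer members or tumors entering.

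Over 3764 values of named collagens under the alternatives, those fixed settings included, 223 changed sign, 5 of them from a main change over 1 SE. Those of the differences given above follow, and the rest belong to differences not given. None of 484 values of list genes did, for which the alternatives were added after seeing the data. For GEM/anti-CD40 Ab against control, Col6a2 was -0.0137 with array weights and -0.0325 after 75th-percentile scaling, and Col12a1 was -0.0163 with array weights, -0.0245 after quantile normalization and -0.0425 after 75th-percentile scaling. Without the 3 tumors Col6a1 was 0.06, Col14a1 -0.0233 and Col17a1 0.18. For anti-CD40 Ab against control, Col4a1 was -0.0225 after 75th-percentile scaling and Col17a1 0.18 without the 3 tumors. For GEM against control, averaging GEM replicates 3 and 4 gave -0.0108 for Col5a2, -0.0575 for Col15a1, -0.0517 for Col6a3, -0.0458 for Col12a1 and -0.0833 for Col14a1. Array weights gave -0.012 for Col6a3 and -0.0229 for Col14a1, quantile normalization -0.0109 for Col15a1 and -0.00836 for Col14a1, and 75th-percentile scaling -0.0125 for Col15a1, -0.005 for Col6a3 and -0.0025 for Col14a1. The mean of probe sets gave -0.0312 for Col18a1 and -0.01 for Col14a1, and Col17a1 was 0.22 without the 3 tumors. With the mean of probe sets Col9a3 was 0.0142 for the combination against anti-CD40 Ab and 0.05 in the interaction. In the pooled antibody effect Col4a1 was 0.000368 with array weights, 0.0187 with the mean of probe sets, 0.00808 with the GEM average and 0.0304 without the 3 tumors. In the pooled GEM effect Col19a1 was -0.0175 with the mean of probe sets and -0.0113 without the 3 tumors.

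With 1 tumor left out, values with a change of sign for GEM/anti-CD40 Ab against control ran from -0.0525 to 0.31 for Col1a1, -0.0217 to 0.32 for Col5a1, -0.12 to 0.0517 for Col4a2, -0.16 to 0.18 for Col6a1, -0.15 to 0.20 for Col6a2, -0.29 to 0.31 for Col6a3, -0.16 to 0.17 for Col12a1, -0.18 to 0.34 for Col14a1, -0.0342 to 0.38 for Col7a1 and -1.10 to 0.15 for Col17a1. For anti-CD40 Ab against control they ran from -0.0475 to 0.11 for Col4a1, -0.025 to 0.16 for Col4a2, -0.22 to 0.21 for Col14a1 and -0.73 to 0.57 for Col17a1. For GEM against control they ran from -0.0358 to 0.13 for Col5a1, -0.0917 to 0.21 for Col5a2, -0.11 to 0.0925 for Col15a1, -0.0192 to 0.30 for Col6a2, -0.19 to 0.17 for Col6a3, -0.14 to 0.19 for Col12a1, -0.27 to 0.17 for Col14a1 and -1.03 to 0.22 for Col17a1. For the combination against anti-CD40 Ab they ran from -0.49 to 0.0875 for Col3a1, -0.0075 to 0.18 for Col2a1 and -0.0375 to 0.0858 for Col4a3. In the pooled effects they ran from -0.0396 to 0.0404 for Col4a1 (antibody), and from -0.026 to 0.25 for Col7a1 and -0.0298 to 0.0917 for Col19a1 (GEM).

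The correlations kept their side of the threshold after quantile normalization and with the GEM average. Deviations from the group means of same-numbered tumors in different groups had correlations of -0.29 to 0.34. Differently numbered tumors were not set beside them, so these values cannot decide whether the numbers pair samples. With a replicate block every class median was that of the fit without it, which the balanced groups fix in advance. With the block 0 collagens passed, and Mmp13 had an adjusted p of 0.05046 in limma in the pooled antibody effect.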
